A study of Sus scrofa with 30 samples.

Results

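The genes described here encode the proteasome: its core and regulatory subunits, its activators, its inhibitor and the chaperones that assemble it. They were taken as the probe sets on a porcine Affymetrix array whose single gene symbol starts with PSMA, PSMB, PSMC, PSMD, PSME, PSMF or PSMG, without PSMD4. Apart from leaving out PSMD4, the rule used gene symbols and mean signal and no measured difference. PSMD4 differed between the treatment arms, as given below, and the members were chosen with earlier results of these data known. Counts of higher and lower members are therefore counts without PSMD4. It found 45 probe sets for 39 genes, of 23999 probe sets on the array once control probe sets are left out. Each gene is given by its probe set with the highest mean signal, and all 39 of these passed the filter on low signal that 16799 probe sets passed in all. All 39 gene IDs carried the same symbol in the RefSeq gene table. Among the 39 genes are 7 subunits of the alpha ring, 7 of the constitutive beta ring, 2 of the immunoproteasome beta subunits (PSMB8 and PSMB10), 5 ATPases and 2 non-ATPase subunits of the base, 7 lid subunits, 4 activators, 1 inhibitor and 4 assembly chaperones. PSMA8, PSMB9, PSMB11, PSMC4, PSMD7, PSMD9, PSMG2 and PSMG4 had no probe set under the rule and were not analysed here.

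The proteasome is the barrel-shaped protease that degrades proteins tagged with ubiquitin. Alpha subunits form the outer rings and the gate of the core particle, and beta subunits form the inner rings, of which PSMB5, PSMB6 and PSMB7 carry the protease sites. A regulatory particle docks on the gate: its base holds a ring of ATPases that unfold the substrate, and its lid removes the ubiquitin chain. In neurons and glia the proteasome clears damaged and short-lived proteins, and interferon signalling can exchange the catalytic beta subunits for immunoproteasome forms.

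Transcript levels were measured in cerebral cortex of prepubertal farm pigs of both sexes, aged 12 to 14 weeks, all anaesthetised with pentobarbital at 8 mg/kg/h and ventilated, with ventricular fibrillation induced by current. Groups MB30, MB60 and MB180 had 12 min of arrest, 8 min of cardiopulmonary resuscitation (CPR) and an infusion of saline at 55 ml/kg/h with methylene blue, a redox dye, at 7.5 mg/kg/h, the cortex being sampled once circulation had been back for 30, 60 or 180 min. Groups SAL30, SAL60 and SAL180 had the same arrest, resuscitation and times with the saline infusion alone, assigned at random; in both arms the infusion ran from 1 min after CPR began to 50 min after circulation returned. Groups CA5, CA20 and CA30 had 5, 20 or 30 min of arrest with no resuscitation, and in CA0 the brain was removed at once. All animals received potassium chloride before the brain was removed. Each of the 10 groups had 3 arrays, labelled as biological replicates, so 30 arrays were read in all, and their number limits the precision of every value.

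Values are intensities in arbitrary units, scaled by the authors so that the trimmed mean of every array is the same, and they are compared here between arrays for 1 probe set at a time. Differences are on the log2(intensity + 16) scale with standard errors from a limma fit to all arrays, and a member is called higher or lower where its p, adjusted by Benjamini-Hochberg over all probe sets tested in the comparison, is at or under 0.05. Across replicate arrays the members' residual standard deviation (SD) had a median of 0.142 log2 units, against 0.262 over all probe sets tested. It was smallest for PSMB6, at 0.0580, and largest for PSMB3, at 0.678. Of the 30 arrays, 5 correlated least with the others (SAL30 replicate 1, SAL180 replicate 3, MB30 replicate 2, MB60 replicate 2 and MB180 replicate 3), with median correlations of 0.933 to 0.950, where the highest of any array was 0.970. Markers of neurons, astrocytes and oligodendrocytes gave the largest summed signals of the 10 cell type lists on every array, while 0 of the 5 white cell markers measured passed the low-signal filter. In this bulk tissue, fewer cells of a type and less RNA per cell cannot be told apart, which holds for each result that follows.

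No member was called during arrest without resuscitation. The comparison asks what changed in the proteasome genes over minutes without circulation. In CA5, CA20 and CA30 against CA0, 0 of 39 members passed, where the share of all probe sets called was 0%, 0.0119% and 0.0119%. No member had an unadjusted p under 0.05 in any of these either, where 1.89%, 4.24% and 4.06% of all probe sets did. The median log2 difference was 0.028 for the members, against 0.0062 over all probe sets tested, in CA5; it was -0.016 for the members, against 0.0063 over all probe sets tested, in CA20; and it was -0.0084 for the members, against 0.015 over all probe sets tested, in CA30. Single members ran from -0.31 (PSMB8) to 0.23 (PSMG1) in CA5, from -0.23 (PSMB5) to 0.24 (PSMF1) in CA20 and from -0.33 (PSMB10) to 0.45 (PSMB3) in CA30. The members' 95% intervals reached to a median of 0.25 log2 units on each side. For 29 members in CA5 and 31 each in CA20 and CA30 the whole interval lay within 0.5 log2 units of 0. The smallest adjusted p of any member in the CA30 comparison was 0.985.

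Reperfusion with saline alone did not move any member past the test either, while 4, 4 and 6 of 11 heat shock genes tested rose at 30, 60 and 180 min in the same arrays. In SAL30, SAL60 and SAL180 against CA0, 0 of 39 members were called, where 0.196%, 0.315% and 0.875% of all probe sets were. At 180 min that share consisted of 0.619% called higher and the rest lower. At an unadjusted p under 0.05 the members numbered 2, 1 and 0 of 39, against 7.38%, 6.3% and 8.73% of all probe sets. Their median difference was 0.01 for the members, against 0.019 over all probe sets tested, at 30 min; it was -0.031 for the members, against 0.012 over all probe sets tested, at 60 min; and it was 0.025 for the members, against 0.00088 over all probe sets tested, at 180 min. The 3 comparisons share the CA0 arrays and are therefore not independent of each other. At 180 min the members with the smallest p were PSMC6, an ATPase of the base, at -0.21 ± 0.12 (adjusted p = 0.711), PSME2, a subunit of the interferon-inducible activator, at -0.24 ± 0.16 (adjusted p = 0.796), and PSMC2, another base ATPase, at -0.17 ± 0.12 (adjusted p = 0.798). The whole 95% interval lay within 0.5 log2 units of 0 for 31 of 39 members at 180 min. The heat shock genes had 0 called lower in SAL180 against CA0, and a median of 1.16. The largest were HSPA6, a stress-induced HSP70 chaperone, at 5.27 ± 0.20, and BAG3, its co-chaperone, at 2.96 ± 0.30. Between SAL180 and SAL30, 0 members were called where 0.655% of all probe sets were (0.417% higher). At an unadjusted p under 0.05 there were 2 of 39 members, against 13.5% of all probe sets. In MB180 against MB30, 0 of 39 members were called, at a background of 0.286%. There 0 members had an unadjusted p under 0.05, against 6.9% of all probe sets.

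**Figure D1:**
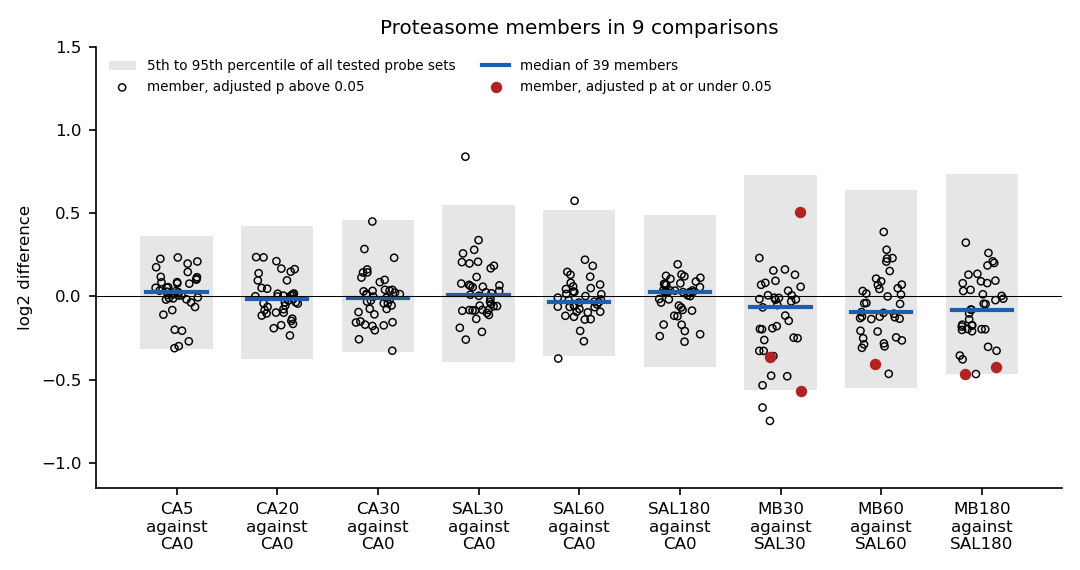
Log2 difference of each of the 39 members (points, filled where the adjusted p is at or under 0.05) in 9 comparisons, with the members' median (line) and the 5th to 95th percentile of all tested probe sets (grey band). The medians of the arrest and saline comparisons lie between -0.031 and 0.028 and those of the 3 MB against SAL comparisons between -0.094 and -0.066.

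With methylene blue, some core, lid, base and activator transcripts were lower than with saline at matched times, while 3 others were higher, and no ATPase of the base passed the test. Over the mean of the 3 matched differences, 13 of 39 members (33.3%) were called, against 25.2% of all probe sets. Of these members 10 were lower and 3 higher, where 11.4% of all probe sets were lower and 13.8% higher. PSMD4, which the rule left out, was called higher and is not in these counts. The lower ones were PSMA7, PSMB4, PSMB5, PSMB7, PSMD2, PSMD11, PSMD13, PSME1, PSME2 and PSMG3, and the higher ones PSMA5, PSMB2 and PSMD5. Called differences were small, between -0.39 (PSME1, 0.764-fold) and 0.35 (PSMA5, 1.28-fold). The median difference was -0.11 for the members, against 0.024 over all probe sets tested. Below 0 lay 26 of 39 members, against 46.5% of all probe sets.

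At single times fewer members passed. In MB30 against SAL30, PSMA5 was called higher and PSMB4 and PSME2 lower, 3 of 39 at a background of 4.09% (2.4% higher and 1.69% lower). In MB60 against SAL60, PSMD11 was the 1 member called, lower, at a background of 1.52%. In MB180 against SAL180, PSMD11 and PSMD13 were lower, at a background of 1.9% (1.28% higher and 0.619% lower). None of these single-time calls remained with the compared groups fitted alone or without the 5 arrays that stood apart. Nor did any remain with the 3' to 5' signal ratio of the arrays as a covariate. Calls over all probe sets in these fits are not given here, so the loss cannot be read as particular to the members. The 3 differences rest on separate arrays. Over the 39 members they correlated at r = 0.563 between 30 and 60 min, 0.544 between 30 and 180 min and 0.772 between 60 and 180 min, where all 16799 probe sets gave 0.632, 0.583 and 0.613; genes are not independent replicates, and these are descriptions. At all 3 times 20 members were lower and 10 higher, against 26.5% and 31.3% of all probe sets. The test of whether the methylene blue difference varied between times called 0 members and 0% of all probe sets with limma. At an unadjusted p under 0.05 it found 0 members and 483 probe sets, and its smallest p among members was 0.0566, for PSME2. A test for any difference among the 10 groups called 8 members (PSMA5, PSMA7, PSMB4, PSMB7, PSMD11, PSMD13, PSME2 and PSMG3) at a background of 15.3%; leaving out 1 array gave 4 to 9, with 4 without CA20 replicate 2, CA20 replicate 3, MB30 replicate 1, MB30 replicate 2 or MB180 replicate 3.

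**Figure D2:**
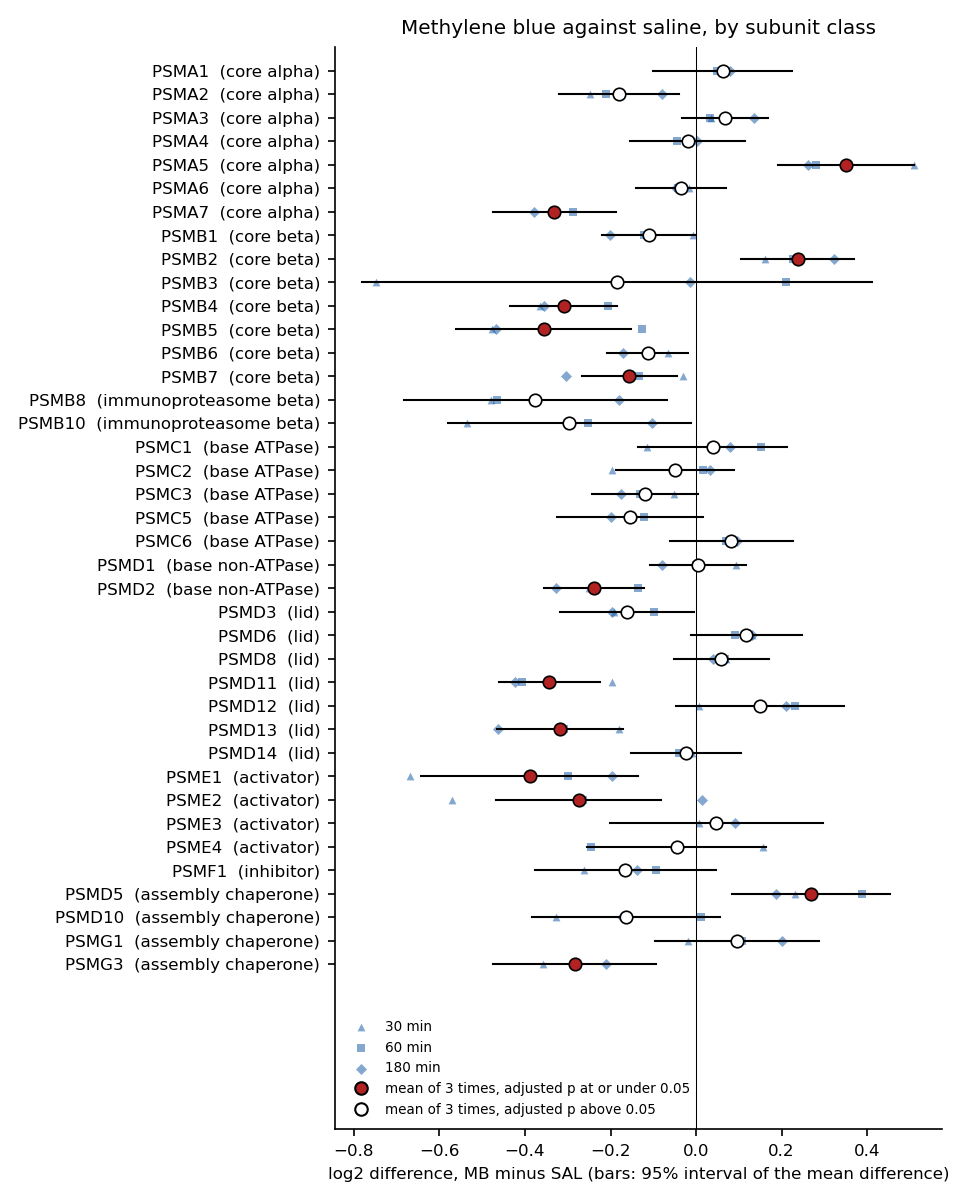
Log2 difference of MB minus SAL for all 39 members by subunit class: circles give the mean over 3 times with its 95% interval, filled where the adjusted p is at or under 0.05, and small symbols the 3 single times. The 5 ATPases have open circles between -0.16 and 0.082, and PSMB3 has the widest interval.

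In the alpha ring, 1 of 7 subunits was higher, 1 lower and 5 not called in the mean difference, with a median of -0.02. Over all probe sets 25.2% were called in this difference (13.8% higher and 11.4% lower), a background that holds for each class below. PSMA5 read 804, 759.6 and 743 in MB30, 691, 812 and 596 in MB60 and 724, 655 and 676 in MB180, against 537, 554 and 514 in SAL30, 542, 577 and 589 in SAL60 and 637, 556 and 518 in SAL180. The MB arrays of this alpha subunit lay above the SAL arrays at each time without overlap, and 8 of 9 MB arrays lay above every SAL array. It read 595, 592 and 493 in CA0, and 461 to 659 on the CA5, CA20 and CA30 arrays. Its differences were 0.51, 0.28 and 0.26 at 30, 60 and 180 min, and their mean was 0.35 ± 0.078 (adjusted p = 0.00212). The call at 30 min (adjusted p = 0.0319) was lost in 6 of 30 fits that each left out 1 array (each MB30 array and each SAL30 array), with adjusted p up to 0.0956, and the call of the mean in none of them. With the 3' to 5' signal ratio of the arrays as a covariate PSMA5 was at 0.21 (adjusted p = 0.105) and no longer called. PSMA7 read 2404, 2345 and 2309 in MB30, 2407, 2288 and 2286 in MB60 and 2347, 2563 and 2496 in MB180, against 3153, 3072 and 2667 in SAL30, 2660.3, 3412 and 2538 in SAL60 and 3052, 2964 and 3664 in SAL180. For PSMA7, another alpha subunit, 8 of 9 MB arrays lay below every SAL array and the groups did not overlap at any time. It read 3141, 3276 and 2995 in CA0, and 2516 to 3584 on the CA5, CA20 and CA30 arrays. The mean difference was -0.33 ± 0.07 (adjusted p = 0.00143), with -0.33, -0.29 and -0.38 at 30, 60 and 180 min, and it held with each array left out. With the 3' to 5' signal ratio of the arrays as a covariate PSMA7 was at -0.18 (adjusted p = 0.0939) and no longer called. The other alpha subunits had mean differences of -0.18 for PSMA2 (adjusted p = 0.0545) to 0.067 for PSMA3. PSMA2 read 1886 to 2288 on MB arrays (median 2075) and 1825 to 2504 on SAL arrays (median 2426), so the arms overlap.

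In the constitutive beta ring, 1 of 7 subunits was higher, 3 were lower and 3 were not called, with a median of -0.16. PSMB4 read 1838, 1859 and 1709 in MB30, 1927, 2008 and 1691 in MB60 and 1859, 1844 and 1937 in MB180, against 2717, 2090.4 and 2214 in SAL30, 2011, 2371 and 2114 in SAL60 and 2810.0, 2175 and 2289.6 in SAL180. PSMB4 is a structural beta subunit without a protease site, and all 9 of its MB arrays lay below all 9 SAL arrays. It read 2223, 2321 and 2107 in CA0, and 2037 to 2342 on the CA5, CA20 and CA30 arrays. Its mean difference was -0.31 ± 0.061 (adjusted p = 0.00078), and it held with each array left out. The difference at 30 min, -0.37 ± 0.11 (adjusted p = 0.0479), lay at the threshold: its call was lost in 22 of 30 fits that each left out 1 array (each MB30 array, MB60 replicate 1, each MB180 array, SAL30 replicate 1, SAL60 replicates 1 and 3, each CA0 array, each CA5 array, each CA20 array and each CA30 array), with adjusted p up to 0.229. PSMB2 read 1428, 1653 and 1246 in MB30, 1504, 1473 and 1538 in MB60 and 1573, 1750.2 and 1538 in MB180, against 1277, 1330.2 and 1231 in SAL30, 1168, 1292 and 1399 in SAL60 and 1235, 1225 and 1418 in SAL180. Here, for a second structural beta subunit, the direction was the opposite: 8 of 9 MB arrays lay above every SAL array, the groups overlapped at 30 min and were separate at 60 and 180 min. It read 1322, 1108 and 1213 in CA0, and 1138 to 1459 on the CA5, CA20 and CA30 arrays. The mean difference of PSMB2 was 0.24 ± 0.064 (adjusted p = 0.00875) and held with each array left out. With the 3' to 5' signal ratio of the arrays as a covariate PSMB2 was at 0.21 (adjusted p = 0.0957) and no longer called. With each array centred on its median it was not called either (0.14, adjusted p = 0.148).

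Of the 3 subunits that carry the protease sites, PSMB5 and PSMB7 were lower. PSMB5 read 1166, 1168 and 865 in MB30, 1277, 1713 and 1086 in MB60 and 1297, 1164 and 872 in MB180, against 1438, 1459 and 1533 in SAL30, 1370.2, 1476 and 1531 in SAL60 and 1547, 1572 and 1447 in SAL180. PSMB5 has the chymotrypsin-like site; 8 of 9 MB arrays lay below every SAL array, and MB60 replicate 2 lay above all of them. It read 1341, 1429 and 1469.9 in CA0, and 975 to 1623 on the CA5, CA20 and CA30 arrays. Its mean difference was -0.36 ± 0.10 (adjusted p = 0.011), with -0.48, -0.13 and -0.47 at 30, 60 and 180 min, and held with each array left out. With the 3' to 5' signal ratio of the arrays as a covariate PSMB5 was at -0.37 (adjusted p = 0.0571) and no longer called. PSMB7 read 1773, 1742 and 1946 in MB30, 1758, 1787 and 1804 in MB60 and 1758, 1738 and 1671 in MB180, against 1861, 1859.7 and 1849 in SAL30, 1885, 1971 and 2022 in SAL60 and 1943, 2063 and 2405 in SAL180. PSMB7, with the trypsin-like site, had 8 of 9 MB arrays below every SAL array. It read 2420.3, 2007 and 2059.7 in CA0, and 1946 to 2331 on the CA5, CA20 and CA30 arrays. At -0.16 ± 0.054 (adjusted p = 0.0367) it was the smallest called difference, and the call was lost in 10 of 30 fits that each left out 1 array (MB30 replicates 1 and 2, MB60 replicates 1 and 2, MB180 replicates 2 and 3, SAL30 replicate 2, SAL60 replicates 2 and 3 and SAL180 replicate 3), with adjusted p up to 0.0931. Without the 5 arrays that stood apart PSMB7 was at -0.11 (adjusted p = 0.256), and with the 3' to 5' covariate at -0.13 (adjusted p = 0.236), called in neither. It was also lost with quantile normalization. PSMB6, with the caspase-like site, read 1329.9 to 1504 on MB arrays (median 1418) and 1416 to 1624 on SAL arrays (median 1522); its mean difference of -0.11 ± 0.046 did not pass (adjusted p = 0.0726). PSMB1, a structural subunit, had -0.11 ± 0.054 (adjusted p = 0.13). PSMB3 read 143, 65.8 and 86.5 in MB30, 215, 352 and 50.2 in MB60 and 115, 75.6 and 73.7 in MB180, against 200.4, 123 and 194 in SAL30, 181, 100.1 and 143 in SAL60 and 97.3, 84.8 and 80.7 in SAL180. The PSMB3 arrays of both arms overlapped at every time, and its mean difference of -0.18 ± 0.29 had a 95% interval from -0.78 to 0.41. It read 25.5, 139 and 156 in CA0, and 34.3 to 177 on the CA5, CA20 and CA30 arrays.

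Neither measured immunoproteasome subunit passed, though both had negative differences at each time. PSMB8 read 135, 127 and 149.6 in MB30, 216, 98.9 and 112 in MB60 and 108, 192 and 193 in MB180, against 141, 257 and 210.4 in SAL30, 182, 186 and 208 in SAL60 and 206, 188 and 156 in SAL180. PSMB8 replaces PSMB5 in the immunoproteasome; 5 of 9 MB arrays lay below every SAL array, and the others overlapped. It read 193, 168 and 202 in CA0, and 106 to 293 on the CA5, CA20 and CA30 arrays. Its mean difference was -0.38 ± 0.15 (adjusted p = 0.0663). PSMB10, which replaces PSMB7, read 165 to 233 on MB arrays (median 192) and 154 to 497 on SAL arrays (median 213), and its mean difference was -0.30 ± 0.14 (adjusted p = 0.116). PSMB8 passed, lower, with quantile normalization, with each array centred on its median and with array weights, and PSMB10 with the centring.

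**Figure D3:**
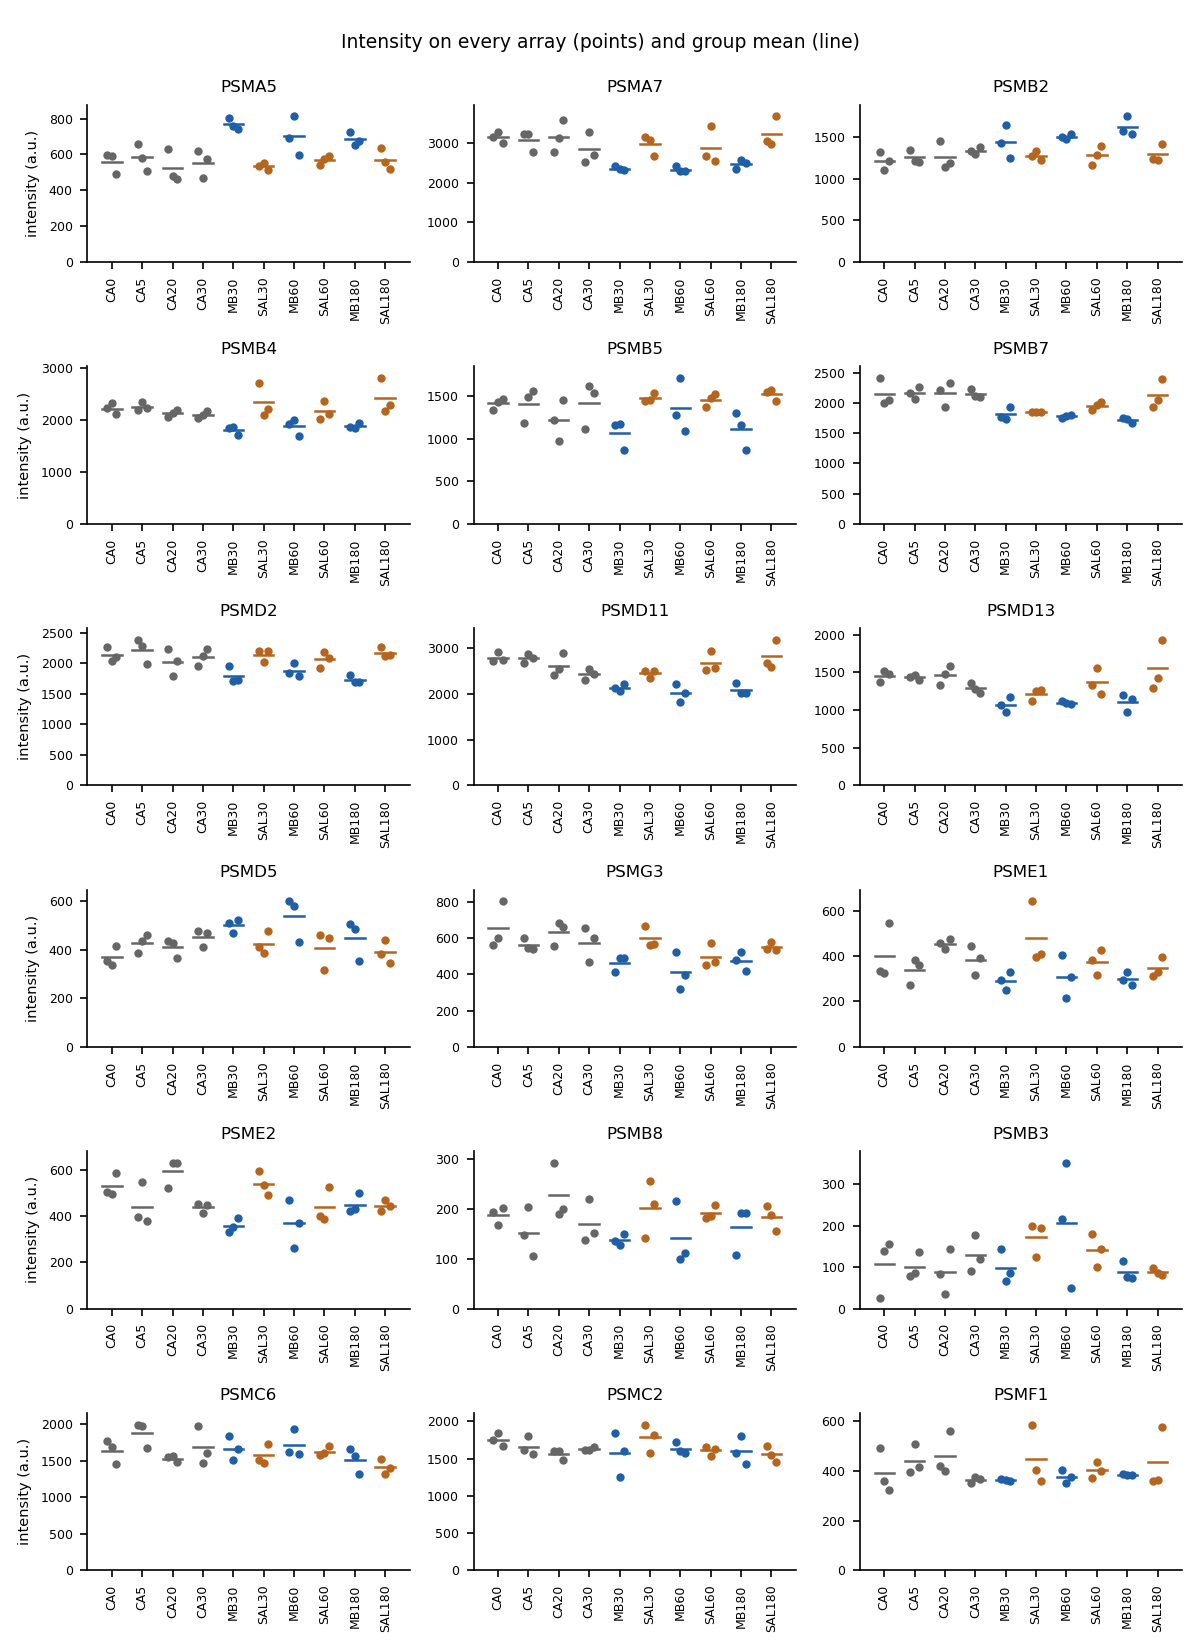
Intensity on each of the 30 arrays for 18 members (points) with the group mean (line); MB groups are blue, SAL groups orange and CA groups grey. PSMB4 and PSMD11 are the members whose 9 MB arrays all lie below the 9 SAL arrays, while in PSMB3, PSMB8, PSMC2 and PSMC6 the arms overlap.

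In the base of the regulatory particle, 0 of 5 ATPases and 1 of 2 non-ATPase subunits were called. The ATPases had a median of -0.049, from -0.16 (PSMC5, adjusted p = 0.171) to 0.082 (PSMC6). PSMC6 read 1836, 1509 and 1659 in MB30, 1619, 1935 and 1598 in MB60 and 1667, 1564 and 1325 in MB180, against 1516, 1472 and 1736 in SAL30, 1575, 1602 and 1709 in SAL60 and 1528, 1318 and 1405 in SAL180. It read 1767, 1697 and 1461 in CA0, and 1473 to 1999 on the CA5, CA20 and CA30 arrays. The arms of PSMC6 overlapped at each time. PSMC2 read 1847, 1255 and 1604 in MB30, 1723, 1596 and 1572 in MB60 and 1571, 1809 and 1422 in MB180, against 1958, 1581 and 1813 in SAL30, 1661, 1538 and 1632 in SAL60 and 1670.0, 1549 and 1458 in SAL180. It read 1745, 1849 and 1672 in CA0, and 1485 to 1800.0 on the CA5, CA20 and CA30 arrays. PSMC2 likewise overlapped throughout, and its mean difference was -0.049 ± 0.067 (adjusted p = 0.627). PSMD2 read 1961, 1712 and 1734 in MB30, 1837, 2011 and 1801 in MB60 and 1813, 1689.9 and 1699 in MB180, against 2203, 2031 and 2204 in SAL30, 1927, 2195 and 2093 in SAL60 and 2277, 2123 and 2138 in SAL180. PSMD2 is a scaffold of the base that binds ubiquitin-like domains, and 7 of 9 MB arrays lay below every SAL array. It read 2272, 2047 and 2104 in CA0, and 1795 to 2391 on the CA5, CA20 and CA30 arrays. Its mean difference was -0.24 ± 0.057 (adjusted p = 0.00363), which held with each array left out. The other scaffold, PSMD1, read 1712 to 2049 on MB arrays (median 1833) and 1719 to 1994 on SAL arrays (median 1852) and had a mean difference of 0.0044 ± 0.055 (adjusted p = 0.961). A test between the classes was not made, so the lack of calls among the ATPases does not set them apart from the other classes, and with each array centred on its median PSMC3 and PSMC5 were called lower.

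In the lid, PSMD11 and PSMD13 were lower and the other 5 of 7 subunits were not called. PSMD11 read 2125, 2076 and 2216 in MB30, 2219, 1829 and 2023 in MB60 and 2252, 2018 and 2018 in MB180, against 2506, 2350.3 and 2511 in SAL30, 2525, 2951 and 2581 in SAL60 and 2686, 2596 and 3194 in SAL180. PSMD11 links the lid to the core particle and the base; its 9 MB arrays lay below all 9 SAL arrays. It read 2717, 2933 and 2755 in CA0, and 2302 to 2902 on the CA5, CA20 and CA30 arrays. The differences were -0.20, -0.41 and -0.42 at 30, 60 and 180 min, and the mean of -0.34 ± 0.057 (adjusted p = 0.000187) had the smallest p of all members and held with each array left out. At 60 min (adjusted p = 0.0365) the call was lost in 5 of 30 fits that each left out 1 array (MB60 replicates 2 and 3 and each SAL60 array), with adjusted p up to 0.233. At 180 min (adjusted p = 0.0264) it was lost in 4 of 30 fits that each left out 1 array (MB180 replicates 2 and 3 and SAL180 replicates 1 and 3), with adjusted p up to 0.202. PSMD13 read 1065, 972 and 1175 in MB30, 1114, 1091 and 1082 in MB60 and 1196, 977 and 1151 in MB180, against 1119, 1251 and 1267 in SAL30, 1333, 1555 and 1217 in SAL60 and 1296, 1426 and 1933 in SAL180. PSMD13 is a structural lid subunit, and 6 of 9 MB arrays lay below every SAL array, with overlap at 30 min. It read 1365, 1521 and 1476 in CA0, and 1228 to 1586 on the CA5, CA20 and CA30 arrays. The mean of -0.32 ± 0.071 (adjusted p = 0.00237) held with each array left out. With the 3' to 5' signal ratio of the arrays as a covariate PSMD13 was at -0.18 (adjusted p = 0.123) and no longer called. Its difference at 180 min, -0.46 ± 0.12 (adjusted p = 0.0485), was at the threshold and lost its call in 22 of 30 fits that each left out 1 array (each MB30 array, each MB60 array, MB180 replicates 2 and 3, SAL30 replicates 2 and 3, SAL60 replicate 1, SAL180 replicate 3, each CA0 array, each CA5 array, CA20 replicate 2 and each CA30 array), with adjusted p up to 0.319. SAL180 replicate 3, at 1933, was the highest array of all for this gene, and without it the difference at 180 min was -0.30. The other lid subunits ran from -0.16 ± 0.076 (adjusted p = 0.118) for PSMD3 to 0.15 ± 0.10 (adjusted p = 0.257) for PSMD12. PSMD14, the subunit that removes ubiquitin chains, read 1117 to 1470.3 on MB arrays (median 1250.2) and 1136 to 1551 on SAL arrays (median 1250.5) and had a mean difference of -0.024 ± 0.062 (adjusted p = 0.813), with an interval from -0.15 to 0.10.

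Among the activators, PSME1 and PSME2, which together form the interferon-inducible cap, were lower in the mean difference, and PSME3 and PSME4 were not called. PSME1 read 294, 251 and 328 in MB30, 405, 214 and 306 in MB60 and 295, 332 and 272 in MB180, against 641, 394 and 408 in SAL30, 381, 315 and 428 in SAL60 and 311, 331 and 397 in SAL180. For PSME1 6 of 9 MB arrays lay below every SAL array, the groups were separate at 30 min and overlapped at 60 and 180 min. It read 335, 323 and 544 in CA0, and 272 to 476 on the CA5, CA20 and CA30 arrays. The mean difference of -0.39 ± 0.12 (adjusted p = 0.023) was lost in 3 of 30 fits that each left out 1 array (MB60 replicate 2, SAL30 replicate 1 and SAL180 replicate 3), with adjusted p up to 0.0598. PSME2 read 334, 353 and 392 in MB30, 471, 264 and 373 in MB60 and 422, 430.2 and 500.3 in MB180, against 596, 537 and 495 in SAL30, 401, 391 and 528 in SAL60 and 423, 469.5 and 446 in SAL180. The MB30 arrays of PSME2 lay below all SAL30 arrays, the later times overlapped, and the differences were -0.57, -0.26 and 0.013 at 30, 60 and 180 min. It read 504, 497 and 589 in CA0, and 381 to 632 on the CA5, CA20 and CA30 arrays. At 30 min the difference was -0.57 ± 0.16 (adjusted p = 0.0463), and its call was lost in 16 of 30 fits that each left out 1 array (each MB30 array, MB60 replicate 3, MB180 replicate 2, SAL30 replicates 1 and 2, SAL60 replicate 1, SAL180 replicates 1 and 2, CA0 replicates 1 and 2, CA5 replicate 1 and each CA30 array), with adjusted p up to 0.162. The mean, -0.27 ± 0.094 (adjusted p = 0.0338), was lost in 9 of 30 fits that each left out 1 array (MB30 replicates 1 and 2, MB60 replicate 2, MB180 replicates 1 and 2, SAL30 replicate 1, SAL60 replicate 3 and SAL180 replicates 2 and 3), with adjusted p up to 0.0867. Without the 5 arrays that stood apart the means were -0.15 for PSME1 (adjusted p = 0.429) and -0.20 for PSME2 (adjusted p = 0.185), and with the covariate -0.38 (adjusted p = 0.124) for PSME1 and -0.26 (adjusted p = 0.167) for PSME2. In the RefSeq gene table PSME2 and PSME1 lie close together, with 1 gene between them. PSME3, an activator found in the nucleus, had 0.047 ± 0.12 (adjusted p = 0.806), and PSME4, a large activator of a separate family, -0.045 ± 0.10 (adjusted p = 0.778).

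The inhibitor PSMF1 was not called by the probe set that stands for it. PSMF1 read 369, 365 and 359 in MB30, 403, 350.5 and 377 in MB60 and 386, 383 and 382 in MB180, against 588, 403 and 359 in SAL30, 373, 438 and 398 in SAL60 and 361, 364 and 579 in SAL180. Its MB arrays were closely grouped and lay within the SAL range or just below it. It read 491, 359 and 324 in CA0, and 352 to 563 on the CA5, CA20 and CA30 arrays. The mean difference was -0.16 ± 0.10 (adjusted p = 0.246). Among the 4 assembly chaperones, PSMD5 was higher and PSMG3 lower. PSMD5 read 509, 469 and 522 in MB30, 599, 581 and 433 in MB60 and 506, 483 and 354 in MB180, against 413, 385 and 478 in SAL30, 459.9, 316 and 449 in SAL60 and 381, 440.1 and 346 in SAL180. PSMD5 binds an ATPase while the base is being assembled; 6 of 9 MB arrays lay above every SAL array. It read 351, 337 and 416 in CA0, and 367 to 475 on the CA5, CA20 and CA30 arrays. Its mean difference of 0.27 ± 0.09 (adjusted p = 0.0307) was lost in 8 of 30 fits that each left out 1 array (MB30 replicate 3, MB60 replicates 1 and 2, MB180 replicates 1 and 2, SAL30 replicate 2, SAL60 replicate 2 and SAL180 replicate 3), with adjusted p up to 0.0828. Without the 5 arrays that stood apart PSMD5 was at 0.28 (adjusted p = 0.0712), and with the 3' to 5' covariate at 0.10 (adjusted p = 0.552), called in neither. It was also lost with each array centred on its median. PSMG3 read 411, 488 and 492 in MB30, 523, 319 and 395 in MB60 and 479.9, 524 and 421 in MB180, against 667, 564 and 565 in SAL30, 452, 573 and 469 in SAL60 and 539.9, 576 and 534 in SAL180. PSMG3 acts in the assembly of the alpha ring, and its groups were separate at 30 and 180 min. It read 561, 599 and 802 in CA0, and 470.2 to 684 on the CA5, CA20 and CA30 arrays. The mean difference of -0.28 ± 0.092 (adjusted p = 0.0262) was lost in 5 of 30 fits that each left out 1 array (MB30 replicate 1, MB60 replicate 2, MB180 replicate 3, SAL30 replicate 1 and SAL60 replicate 2), with adjusted p up to 0.0671. Without the 5 arrays that stood apart PSMG3 was at -0.19 (adjusted p = 0.22), and with the 3' to 5' covariate at -0.22 (adjusted p = 0.23), called in neither. PSMD10, another base chaperone, had -0.16 ± 0.11 (adjusted p = 0.269), and PSMG1, an alpha ring chaperone, 0.10 ± 0.093 (adjusted p = 0.475).

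Counted without a test, the MB and SAL arrays of 2 members, PSMB4 and PSMD11, did not overlap over all 9 against 9 arrays, at a background of 1.95% of all probe sets (1.13% with MB higher and 0.827% with MB lower). At single times the 3 MB and 3 SAL arrays were separate for 11 members at 30 min (1 higher, 10 lower), 9 at 60 min (3 higher, 6 lower) and 15 at 180 min (3 higher, 12 lower). The background was 22.4%, 22.5% and 21.7%, of which 9.58%, 12.2% and 9.61% were lower in MB. For PSMB4, PSMD11 and PSMD13 the 9 MB arrays also lay below all 12 CA arrays. The background was 3.13% in either direction, of which 1.97% had MB higher and 1.16% MB lower.

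Against CA0, lower members outnumbered higher ones in each methylene blue group; these comparisons share the CA0 arrays with each other and with those of the saline groups. In MB30, PSMA5 was higher (0.45 ± 0.13, adjusted p = 0.031) and PSMA7, PSMD11, PSMD13 and PSME2 were lower, at a background of 12.2% (7.58% higher and 4.59% lower). PSME2 had the largest of these differences, -0.54 ± 0.16 (adjusted p = 0.0327). In MB60, PSMD5 was higher (0.52 ± 0.16, adjusted p = 0.0299) and PSMA7, PSMD11, PSMD13, PSME2 and PSMG3 were lower, at a background of 12.5% (7.05% higher and 5.49% lower). PSMG3 showed -0.66 ± 0.16 (adjusted p = 0.00939) and PSME2 -0.53 ± 0.16 (adjusted p = 0.0317), which was -0.32 and not called without MB60 replicate 2. In MB180, PSMB2 was higher (0.41 ± 0.11, adjusted p = 0.0211) and PSMB7, PSMD11 and PSMD13 were lower, at a background of 9.41% (5.7% higher and 3.71% lower). PSMD11 had -0.39 ± 0.10 in MB30, -0.47 ± 0.10 in MB60 and -0.42 ± 0.10 in MB180, and its calls at 60 and 180 min held with each array left out, while that at 30 min was lost in 2 (MB30 replicate 2 and CA0 replicate 2) of 30 such fits. In MB30 the calls were lost in 4 (each MB30 array and CA0 replicate 3) fits for PSMA5, in 5 (each MB30 array and CA0 replicates 1 and 2) for PSMA7, in 4 (MB30 replicates 1 and 2 and CA0 replicates 2 and 3) for PSMD13 and in 6 (each MB30 array and each CA0 array) for PSME2. In MB60 they were lost in 4 (MB60 replicates 1 and 2 and CA0 replicates 1 and 2) fits for PSMD5, in 4 (MB60 replicates 2 and 3 and CA0 replicates 1 and 2) for PSMA7, in 5 (each MB60 array and CA0 replicates 2 and 3) for PSMD13, in 5 (MB60 replicates 2 and 3 and each CA0 array) for PSME2 and in 2 (MB60 replicate 2 and CA0 replicate 3) for PSMG3. In MB180 they were lost in 3 (MB180 replicate 2 and CA0 replicates 2 and 3) fits for PSMB2, in 4 (MB180 replicates 2 and 3 and CA0 replicates 1 and 3) for PSMB7 and in 16 (MB30 replicate 1, MB60 replicates 1 and 2, MB180 replicates 2 and 3, SAL30 replicate 2, SAL60 replicate 1, each CA0 array, CA5 replicates 1 and 2, CA20 replicate 2 and each CA30 array) for PSMD13, whose adjusted p was 0.0457 and reached 0.202. Without the 5 arrays that stood apart the calls of PSMA5 and PSMA7 in MB30, of PSMA7, PSMD5, PSME2 and PSMG3 in MB60 and of PSMB7 in MB180 were lost. The second probe set of PSMD11 was called higher in MB60, at 0.67 ± 0.22 (adjusted p = 0.0469), opposite to the first, and the second of PSMF1 was called higher there too, at 0.84 ± 0.24 (adjusted p = 0.0213), where the first was at -0.034. With 1 array left out, the number of members called ran from 0 (without MB30 replicate 2) to 7 in MB30, from 1 (without MB60 replicate 2) to 7 in MB60 and from 1 (without CA0 replicate 3 or MB180 replicate 2) to 5 in MB180. With the 3' to 5' signal ratio as a covariate 0 members were called in each of the 3. Calls over all probe sets in these alternative fits are not given here, so the changes cannot be read as particular to the members. The median of the members was -0.088, -0.081 and -0.12, against 0.036, 0.0068 and 0.042 over all probe sets.

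Several array properties moved with the methylene blue arm. The log2 ratio of 3' to 5' signal, averaged over the actin, GAPDH and EF1A control transcripts and read as a sign of RNA integrity, was 0.713 to 1.35 on MB arrays, 0.985 to 2.60 on SAL arrays and 1.07 to 2.71 on CA arrays. Median intensity was 97.6 to 108 on MB arrays, 87.1 to 105 on SAL arrays and 88.0 to 97.6 on CA arrays. With the ratio as a covariate 0 members were higher and 4 lower, with the median at -0.11. PSMB4, PSMD2 and PSMD11 remained and PSMA2 was added; PSMD11 stood at -0.24 (adjusted p = 0.0145). Without the 5 arrays that stood apart 2 members were higher and 7 lower, 8 of them among the 13 (PSMA2 was added, and PSMB7, PSMD5, PSME1, PSME2 and PSMG3 were lost). Scaling changed the split of the calls: with each array centred on its median 1 member was higher and 19 were lower (all probe sets 1502 higher and 3350 lower, against 2313 and 1918), and the median over all probe sets moved to -0.071 and that of the members to -0.21. Under the centring PSMB2 at 0.14 and PSMD5 at 0.17 were no longer called. Quantile normalization gave 3 higher and 10 lower, of which 12 were the same (PSMB8 in place of PSMB7), at medians of -0.10 for the members and -0.024 for all. The signs of the 13 called members were the same under both scalings. For the covariate, the fit without 5 arrays and quantile normalization, calls over all probe sets are not given here. Changes in those member counts therefore cannot be read as particular to the members. Whether the arms were processed together is not given in the sources used here, and the part of these array properties in the result was not tested beyond these fits.

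The difference between arms also depended on signal level over the whole array. With the probe sets cut into 10 bins of equal number by mean signal, the median of all probe sets was 0.17 in the lowest bin, -0.056 in the 8th and -0.017 in the highest. Of the 39 members 19 lay in the highest bin, where their median was -0.11; 1 of these was called higher and 6 lower, against 9.64% and 16.1% of all probe sets there. No member lay in the 3 lowest bins.

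**Figure D4:**
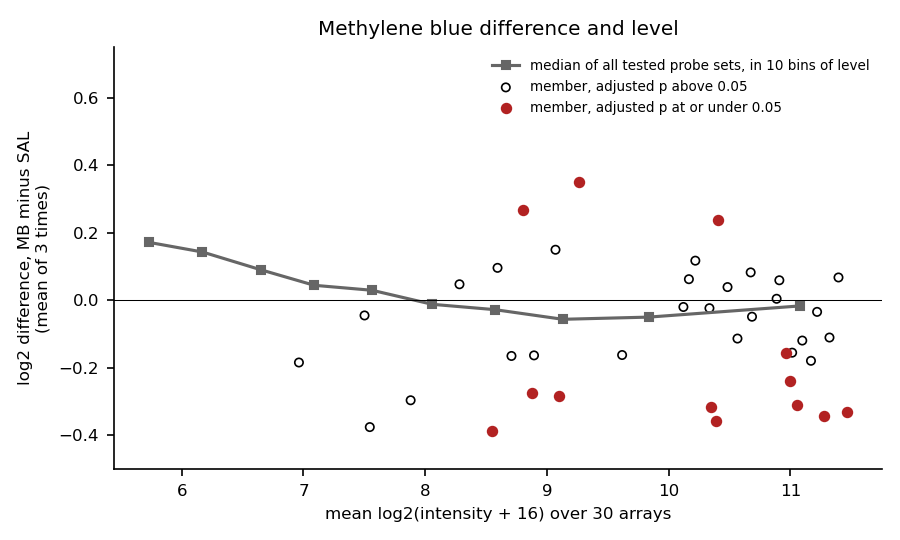
Mean log2 difference of MB minus SAL against mean log2(intensity + 16) over 30 arrays for the 39 members (circles, filled where called), with the median of all tested probe sets in each of 10 bins of signal (squares). The line falls to -0.056 in the 8th bin, and the 10 members called lower lie below it.

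Summed marker signals of other cells were set beside the result. Neuron markers (7 of 10 measured) summed to 33149.6 to 56971 on MB and 26119.8 to 42537 on SAL arrays, astrocyte markers (7 of 8) to 24229 to 37704 on MB and 28258 to 36077 on SAL arrays, and oligodendrocyte markers (5 of 7) to 23079 to 45054 on MB and 26931 to 36401 on SAL arrays. Microglia markers (4 of 9) summed to 1123 to 1984 on MB and 1319 to 4287 on SAL arrays, endothelial markers (8 of 8) to 2061 to 2991 on MB and 1863 to 3347 on SAL arrays, and those of the meninges (4 of 5) to 867 to 1267 on MB and 597 to 1086 on SAL arrays. Smooth muscle markers (5 of 6) summed to 2089 to 3313 on MB and 2091 to 3472 on SAL arrays, red cell markers (2 of 5) to 806 to 1493 on MB and 671 to 1295 on SAL arrays, white cell markers (5 of 7) to 86.1 to 264 on MB and 102 to 154 on SAL arrays, and choroid plexus markers (2 of 4) to 143 to 268 on MB and 136 to 365 on SAL arrays. The MB and SAL ranges overlap for each of the 10 lists. On CA arrays the markers of the meninges summed to 504 to 864, below every MB array. The MB and CA ranges of the other lists overlap, though choroid plexus markers reached up to 12196.5 on CA arrays. The part of these sums in the results, also in those of MB against CA arrays, was not tested.

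Of the 39 genes 4 had more than 1 probe set, and these disagreed for the gene with the clearest difference. The second PSMD11 probe set read 445, 375 and 411 in MB30, 423, 529 and 440.2 in MB60 and 376, 326 and 376 in MB180, against 368, 325 and 387 in SAL30, 338, 251 and 469 in SAL60 and 334, 379 and 204 in SAL180. Its arms overlapped, and its mean difference was 0.29 ± 0.13 (adjusted p = 0.1), opposite in sign to that of the first. The third read 54.2 to 169 on MB arrays and 56.5 to 131 on SAL arrays, with -0.08 ± 0.17. Averaged over all 3 probe sets, the mean difference of PSMD11 was -0.045. The 3 PSMC2 probe sets gave -0.049 ± 0.067, 0.066 ± 0.068 and 0.22 ± 0.11, the 2 of PSMD1 0.0044 ± 0.055 and 0.15 ± 0.10, and the 2 of PSMF1 -0.16 ± 0.10 and 0.23 ± 0.14; none of these mean differences was called. In MB60 against CA0 the second probe sets of PSMD11 and PSMF1 were called higher, as given above. Which transcript parts the probe sets match was not analysed here.

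**Figure D5:**
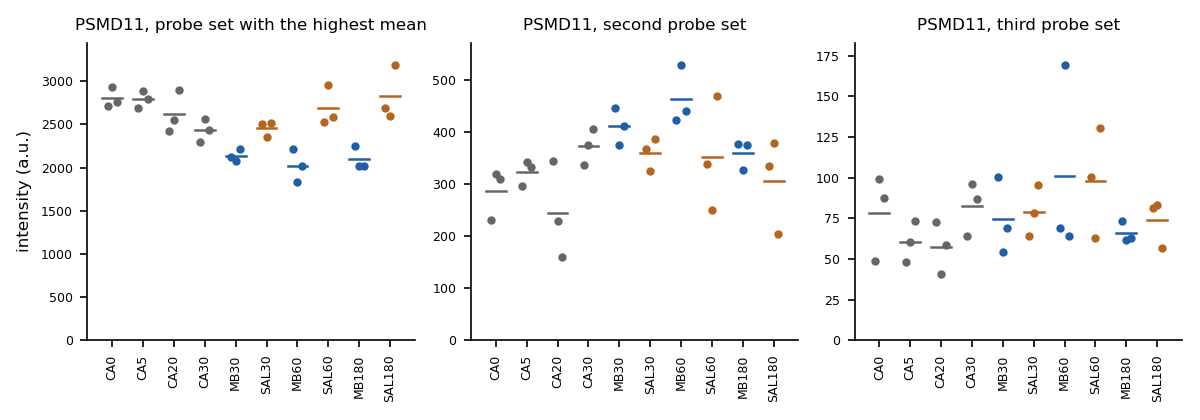
Intensity on the 30 arrays for the 3 PSMD11 probe sets (points, with the group mean as a line; MB blue, SAL orange, CA grey). Only in the first of these 3 do the MB arrays lie below all SAL arrays; in the other two the arms overlap.

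PSMD4, the ubiquitin receptor of the base, is left out of the members. It read 1056 to 1363 on MB arrays and 235 to 441 on SAL arrays, without overlap, a mean difference of 1.76 ± 0.12 (adjusted p = 1.56e-10). That is several times the size of any member's difference and was 1.61, 1.95 and 1.71 at 30, 60 and 180 min. In the RefSeq gene table it lies next to PIP5K1A, with 4 genes between it and PSMB4.

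Other genes of the pathway were read from lists that the rule did not choose. Of 7 tested subunits and partners without the PSM prefix, 1 was higher and 1 lower in the mean difference, with a median of 0.014: AKIRIN2, needed for nuclear import of the proteasome in human cells, had 0.37 ± 0.12 (adjusted p = 0.0323), and SEM1, the smallest lid subunit, -0.21 ± 0.065 (adjusted p = 0.0206). The call of AKIRIN2 was lost in 9 of 30 fits that each left out 1 array (MB30 replicate 2, MB60 replicates 1 and 2, MB180 replicate 2, SAL30 replicate 1, SAL60 replicates 2 and 3 and SAL180 replicates 1 and 3), with adjusted p up to 0.0842. It was also lost in 6 of 13 other settings, among them quantile normalization, median centring, the 3' to 5' covariate and the fit without the 5 arrays that stood apart (0.19, adjusted p = 0.385). That of SEM1 was lost without SAL60 replicate 2 (adjusted p = 0.0522), without the 5 arrays that stood apart (adjusted p = 0.0687), with the covariate (adjusted p = 0.353), with quantile normalization and with adjustment over all comparisons together. In the same list, ZFAND2A, a proteasome-binding factor induced by heat shock and arsenite, was higher in SAL180 against CA0 (1.47 ± 0.22, adjusted p = 0.00028), while PAAF1, which binds base ATPases, had -0.16 ± 0.17 (adjusted p = 0.92). Of 4 ubiquitin and activating enzyme genes tested, UBA2 was higher in the mean difference (0.31 ± 0.069, adjusted p = 0.00207); it belongs to the enzyme that activates SUMO, a relative of ubiquitin, and its call was lost with the 3' to 5' ratio as a covariate. UBB, a polyubiquitin gene, had 0.22 ± 0.11 (adjusted p = 0.164). In SAL180 against CA0 none of the 4 was called; UBA3, of the enzyme that activates NEDD8, had -0.18 ± 0.17 (adjusted p = 0.892) and UBA2 0.10 ± 0.12 (adjusted p = 0.932).

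Among 5 tested shuttle and segregase genes, FAF2, an adaptor of VCP at the endoplasmic reticulum, was higher (0.73 ± 0.12, adjusted p = 0.000171) and VCP, the ATPase that extracts ubiquitinated proteins, was lower (-0.30 ± 0.06, adjusted p = 0.000859), and both calls held with each array left out. FAF2 also passed in MB30 against SAL30. In SAL180 against CA0 the same genes had 0.48 ± 0.21 (adjusted p = 0.475) and 0.14 ± 0.10 (adjusted p = 0.826). Of 16 interferon and antigen presentation genes tested, 0 were called in the mean difference, with a median of -0.15; TAPBP, a peptide-loading chaperone, had -0.21 ± 0.10 (adjusted p = 0.102) and ISG15, a ubiquitin-like modifier, -0.49 ± 0.26 (adjusted p = 0.164). None of the 16 was called in SAL180 against CA0, where IRF1, an interferon-regulated transcription factor, had 0.69 ± 0.21 (adjusted p = 0.156) and SLA-8 -0.54 ± 0.34 (adjusted p = 0.765). TAP1, the peptide transporter gene next to PSMB8 in the RefSeq table, had -0.19 ± 0.12 (adjusted p = 0.257) in the mean difference. Of the 11 heat shock genes, HSPB8, a small heat shock protein, was higher in the mean difference (0.39 ± 0.086, adjusted p = 0.00186), as was HSPD1, a mitochondrial chaperone (0.24 ± 0.059, adjusted p = 0.00435). The call of HSPB8 was lost with the 3' to 5' covariate (adjusted p = 0.0826) and that of HSPD1 with median centring (adjusted p = 0.123). For comparison, 25.2% of all probe sets were called in the mean difference. None of the 6 listed regulators of proteasome transcription, NFE2L1 among them, had a probe set with a single symbol.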

How the data were processed

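Cortical RNA of 30 samples (10 groups of 3) was labelled by a one-cycle protocol and hybridised to porcine Affymetrix arrays, per the labels' protocols. The deposited values are linear intensities on a scale the authors set per array with GCOS, per the submitters' processing notes; its version and algorithm were not given in the sources used here. On every array the mean without the lowest and highest 2% of probe sets was 300.05 to 300.06. Of 24123 probe sets, 124 controls were left out; 10069 carried 1 gene symbol, 198 several and 13732 none in the platform annotation, which can be old.

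Values were taken as log2(intensity + 16), and probe sets under the 30th percentile of the mean (an intensity of 29.5) were left out. limma 3.58.1 in R 4.3.3 fitted 10 group means with an intensity trend (20 residual degrees of freedom), and Benjamini-Hochberg adjustment ran over all probe sets within a comparison, at 0.05. The fit was also run on simulated data with independent noise on each array and the same shift on all MB arrays. Such data lack the array differences described above, so the run does not bear on them. Sexes were not given per array, and the number of arrays limits the precision.

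Values on every array are given for members called in any comparison, for the member of each class with the smallest p over the 10 groups, for the highest and lowest mean level, and for the 3 smallest p-values in SAL180 against CA0, MB180 against SAL180 and the mean difference. The members, classes and gene lists were chosen with earlier results of these data known. Alternatives covered the pseudocount, filter, scaling, fit, weights, replicate block, adjustment, probe sets and each array left out; the 3' to 5' ratio as a covariate and the fit without 5 arrays were chosen after seeing the data. Gene positions and sequences were not used here, beyond gene order in the RefSeq table.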

Additional observations from a re-analysis of the deposited data

How the results depend on the processing

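Counts of members called are out of 39, and those that moved by over 1.5 times were these. The cause was not tested, except that smaller fits have fewer arrays. Counts over all probe sets under the same settings are not set beside them here, so a change cannot be read as particular to the members. With median centring, calls over all probe sets in the mean difference changed too, as given above. In MB30 against CA0 (5 called as reported), 13 were called with median centring, 1 with the compared groups fitted alone, 2 with adjustment over all comparisons together, 0 with the 3' to 5' covariate and 3 without the 5 arrays that stood apart. In MB60 against CA0 (6), the groups alone gave 0, the joint adjustment 2, the covariate 0 and the fit without 5 arrays 2. In MB180 against CA0 (4), quantile normalization gave 2, median centring 12, the groups alone 0, no intensity trend 2, the joint adjustment 2 and the covariate 0. In MB30 against SAL30 (3), a pseudocount of 1, no trend, array weights, the replicate block and the joint adjustment gave 1 each, and the groups alone, the covariate and the fit without 5 arrays 0 each. In MB60 against SAL60 (1), median centring, the groups alone, no trend, the covariate and the fit without 5 arrays gave 0. In MB180 against SAL180 (2), a pseudocount of 1, no filter, quantile normalization, no trend and the replicate block gave 1 each, median centring 6, array weights 5, and the groups alone, the covariate and the fit without 5 arrays 0 each. For the mean difference (13), median centring gave 20, the joint adjustment 8 and the covariate 4. For any difference among the 10 groups (8), median centring gave 13, no trend 5, the covariate 0 and the fit without 5 arrays 1; the joint adjustment was not run for it or for the interaction, nor the groups alone for it.

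With 1 array left out, 0 to 0 members were called in each CA and SAL comparison with CA0, in SAL180 against SAL30, in MB180 against MB30 and in the interaction. The range was 0 to 7 in MB30 against CA0, 1 to 7 in MB60 against CA0, 1 to 5 in MB180 against CA0, 0 to 3 in MB30 against SAL30, 0 to 1 in MB60 against SAL60, 0 to 3 in MB180 against SAL180 and 4 to 9 for any difference. For the mean difference it was 9 (without MB60 replicate 2) to 14 (without CA20 replicate 3 or SAL30 replicate 3). Over all probe sets, 1983 were higher and 1683 lower without MB60 replicate 2. Without SAL30 replicate 3 they were 2421 and 2126, and without CA20 replicate 3 2321 and 1904, against 2313 and 1918 with all arrays. The other ranges, here and above, are not set beside those over all probe sets and cannot be read as particular to the members. Averaging all probe sets of PSMD11 turned its sign to 0.023 in MB30 and 0.15 in MB60 against CA0. MB and SAL samples of the same replicate number and time did not deviate together (r from -0.243 to 0.0888, 0 of 9 over 0.1). CA samples and pairs between times were not compared, so whether the numbers pair samples is not settled. With the replicate block 3 members were higher and 11 lower in the mean difference. Calls over all probe sets with the block are not given here, so this split cannot be read as particular to the members.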

Other observations

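Outside the proteasome genes, 7 of 43 cell type markers tested passed in the mean MB against SAL difference, where 25.2% of all probe sets did; the alternatives were not run for them. SYT1, a synaptic vesicle protein and 1 of 7 neuron markers, had 0.31 ± 0.091, adjusted p = 0.0147. Of 7 astrocyte markers, SLC1A3, a glutamate transporter, had 0.43 ± 0.13, adjusted p = 0.0162, and GLUL, glutamine synthetase, -0.46 ± 0.14, adjusted p = 0.0196. TYROBP, an adaptor protein and 1 of 4 microglia markers, had -0.52 ± 0.15, adjusted p = 0.0112. CDH5, the endothelial cadherin, was 1 of 8 endothelial markers, whose differences ran from -0.34 to 0.44 (median 0.045), and had 0.31 ± 0.11, adjusted p = 0.0309. Of 4 markers of the meninges, COL3A1, a fibrillar collagen, had 0.87 ± 0.22, adjusted p = 0.00494, and DCN, a matrix proteoglycan, 0.55 ± 0.21, adjusted p = 0.0495. None of the 5 oligodendrocyte and 5 smooth muscle markers tested passed. The other neuron, astrocyte, microglia, endothelial and meninges markers tested did not pass either, and a single marker does not stand for its cell type.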
